A study of Rattus norvegicus with 31 samples.

Results

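The heart's left ventricle holds many assembled RNAs that carry no gene name and lie on the strand opposite a named gene. Such unnamed antisense genes were taken from the annotation that the authors assembled from their reads. A gene was a member when no line of that annotation gave it a name, when its span overlapped a named gene on the opposite strand, and when it overlapped no named gene on its own strand. Only autosomes were used. The rule was met by 4122 of the 46063 genes with a value, out of 24431 unnamed genes. The rule used positions and names and no measured value. The partner of each member was the named gene of the opposite strand with the longest overlap of spans, and 3730 members had a partner with a value of its own.

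Left ventricles of naive male rats were sequenced as total RNA after removal of ribosomal RNA, with a stranded library kit. Such a kit is meant to keep both strands of a locus apart. How fully it did so was not measured, so a share of partner reads in the value of a member was not tested. The progenitors were BN-Lx (BN-Lx/Cub), a normotensive Brown Norway congenic strain, and the spontaneously hypertensive SHR (SHR/OlaIpcv), with 4 animals each in sequencing batch 1. The 21 recombinant inbred strains descend from both, 12 of the HXB family (substrain Ipcv) and 9 of the BXH family (substrain Cub), with 1 library each, 6 in batch 2 and 15 in batch 3. No treatment or transgene was involved, and the labels give neither ages nor litters. Every p-value therefore reflects only the spread among the animals or strains that were sampled. Values are log2 levels without counts, so that the depth is unknown. Library medians of all genes ran from 4.29 to 4.46 in the progenitors and from 3.99 to 4.59 in the strains. All replicates differed from each other, by a root mean square of 0.62 to 0.71. In bulk tissue, fewer cells of a type and less RNA per cell cannot be told apart. The cardiomyocyte markers that could be found (8 of 9) summed to 20.72 to 20.91 in BN-Lx and 20.60 to 20.77 in SHR. These ranges overlap, and of the 8 markers 2 were called lower in SHR and 0 higher. Of 3 skeletal muscle markers 1 was found, near the bottom of the scale and lower in SHR (1.37 to 2.24) than in BN-Lx (2.46 to 2.92), and no adipocyte marker was found under its own name.

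An antisense RNA is transcribed from the DNA strand opposite another gene. Some antisense RNAs share a bidirectional promoter with the gene they face, some lie inside its introns, and some run into its end. In the heart, well-known examples face transcription factors, ion channels and imprinted genes, and an assembled gene without a name can also be a known gene that the annotation failed to name.

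The members were short and weakly expressed. Their median span was 4614.5 bases and their median exon length 1217 bases, and 3235 had 2 or more exons while 887 had 1. Of the members 2816 lay inside their partner, 703 met it head to head (the overlap holds the start of each), 427 met it tail to tail, and 176 surrounded it. Exons of 1989 members overlapped an exon of a named gene on the other strand, and those of 2133 did not. The median level over the 8 progenitor libraries was 3.07, against 4.32 for all genes and 9.69 for the partners. All other unnamed genes had a median of 3.15, so the low level was not particular to the members. Per kilobase of exon, the median member stood at 2.79 and the median partner at 5.68 (log2) over the 3730 pairs. In both BN-Lx and SHR 703 members (18.8%) stood above their partner per kilobase. Across pairs, the levels per kilobase of member and partner were nearly unrelated (r = 0.07 in BN-Lx and in SHR, across genes, which are not independent replicates).

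Members often shared a locus. There were 2770 partners, of which 1989 had 1 member and 59 had 5 or more. Trdn, the gene of triadin in the calcium release complex, had 21 members, and RT1-CE14, a class I histocompatibility gene, had 11. Members on the same strand with overlapping spans and 1 partner made 446 loci that held 1096 members. Such members overlap in span, the exon bases they share were not counted, and how reads were divided among them is unknown here.

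Of the head-to-head members, 319 started within 1000 bases of their partner's start in the deposited annotation, at a median distance of 330 bases. RefSeq holds a promoter for 181 of the partners of these. Their 250 bases before the start had a median GC content of 62.0%, against 52.4% for all 24206 RefSeq promoters, and a median of 17 CpG dinucleotides against 6. The letters GGGCGG, read on either strand, stood in 57.5% of them and in 33.6% of all, those of CCAAT in 27.6% and 34.4%, and those of TATAAA in 6.63% and 13.3%. None of the 3 strings contains another, and a match is a description only. The 24206 promoters were taken whatever the level of their gene, and partners in other arrangements were not compared. Whether these differences belong to close head-to-head pairs was therefore not tested. The promoters of 4 head-to-head partners that return in the results are shown 5′ to 3′ on the partner's strand, 250 bases up to the RefSeq start (build GRCr8, which is not the build of the files), with matches to these 3 motifs in capitals. They belong to Chrm2 (chr4:65982200-65982449, plus strand), Zeb2 (chr3:49754324-49754573, minus strand), Cox10 (chr10:49242010-49242259, minus strand) and Hand2 (chr16:37931489-37931738, minus strand).
Chrm2: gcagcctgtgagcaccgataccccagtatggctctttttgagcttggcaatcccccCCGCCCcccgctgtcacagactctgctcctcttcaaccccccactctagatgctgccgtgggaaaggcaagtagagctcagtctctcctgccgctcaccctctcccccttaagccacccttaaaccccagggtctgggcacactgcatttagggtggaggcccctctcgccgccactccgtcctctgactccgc
Zeb2: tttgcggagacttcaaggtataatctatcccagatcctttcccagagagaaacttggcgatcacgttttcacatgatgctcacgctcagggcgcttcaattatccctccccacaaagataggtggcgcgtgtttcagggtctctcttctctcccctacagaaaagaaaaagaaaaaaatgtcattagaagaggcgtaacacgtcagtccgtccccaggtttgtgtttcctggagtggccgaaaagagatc
Cox10: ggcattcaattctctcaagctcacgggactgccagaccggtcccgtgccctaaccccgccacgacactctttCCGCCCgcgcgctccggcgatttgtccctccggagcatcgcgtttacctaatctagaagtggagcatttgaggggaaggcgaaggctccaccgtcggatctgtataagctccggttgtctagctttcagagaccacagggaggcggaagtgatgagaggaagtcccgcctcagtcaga
Hand2: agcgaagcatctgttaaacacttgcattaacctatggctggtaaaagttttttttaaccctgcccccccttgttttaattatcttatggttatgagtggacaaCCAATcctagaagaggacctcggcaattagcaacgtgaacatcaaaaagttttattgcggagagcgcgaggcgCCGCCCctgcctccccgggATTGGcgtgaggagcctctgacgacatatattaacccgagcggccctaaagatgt
Zeb2 held none of the 3 motifs in this window, Chrm2 and Cox10 each held GGGCGG once on the other strand, and Hand2 held it once beside CCAAT at 2 places. In the deposited annotation the antisense gene started 57 bases inside Cox10, 249 inside Zeb2, 486 inside Hand2 and 2927 inside Chrm2.

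SHR and BN-Lx were compared to see which antisense genes differ between the hypertensive and the normotensive progenitor. By limma with Benjamini-Hochberg adjustment over all genes, 538 of the 4122 members (13.1%) differed, 224 higher and 314 lower in SHR. Among all 46063 genes 14.3% differed, 7.38% higher and 6.95% lower. Among genes with a mean above the median of all genes, 280 of 1195 members (23.4%) and 20.5% of all such genes were called. The 2 strains did not overlap in 809 members (19.6%) and in 20.6% of all genes. A called difference of at least 2 (log2) was found in 77 members (1.87%), 44 higher and 33 lower, and in 1.41% of all genes. The median log2 difference was −0.07 over the members and 0.01 over all genes. Members that surrounded their partner were called in 43 of 176 cases (24.4%), those inside it in 354 of 2816 (12.6%), those head to head in 92 of 703 (13.1%) and those tail to tail in 49 of 427 (11.5%). Markers of other cell types moved with the strain. The summed macrophage markers stood at 12.14 to 12.29 in BN-Lx and 11.83 to 12.05 in SHR (2 of 3 lower), the mesothelial ones at 10.15 to 10.34 and 9.90 to 10.13 (2 of 3 lower), and those of smooth muscle and pericytes at 12.92 to 13.06 and 13.08 to 13.14 (2 of 4 higher), all without overlap. The endothelial sums overlapped, at 15.52 to 15.58 and 15.50 to 15.63, with 3 of 5 markers higher and 1 lower in SHR. The part of these cell types in the counts was not tested.

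Among the members lower in SHR, the gene opposite Cdkl3 and Ppp2ca (PRN7.71G0160814, chr10:36275831-36276074 of rn7, minus strand) differed most, and Ppp2ca encodes a catalytic subunit of protein phosphatase 2A. It is a single exon of 244 bases in an intron of its partner. Its levels were 8.54, 8.53, 8.54 and 8.40 in BN-Lx and 3.54, 3.52, 3.58 and 3.49 in SHR. The difference was −4.97 ± 0.14 (SE, n = 4 against 4; limma, adjusted p = 4.62e-10), while its partner differed by 0.17 (adjusted p = 0.109). The 21 strains fell into 2 separate groups at about these levels: 7 strains stood at 3.08 to 4.28 and 14 at 6.69 to 8.11. The gene opposite Coro2a (PRN7.71G0094925, a coronin that binds actin) stood at 6.24, 6.22, 7.02 and 6.42 in BN-Lx and at 2.12, 2.81, 1.59 and 2.57 in SHR. Here 12 strains stood at 2.22 to 3.64 and 9 at 5.96 to 7.41. The gene opposite Arsl and Zfp267 (PRN7.71G0041496) stood at 6.28 to 6.37 in BN-Lx and at 3.03 to 3.62 in SHR, and its strains also split, 14 at 3.12 to 4.57 and 7 at 6.23 to 6.69. The genes opposite Tenm4 (PRN7.71G0017191, a teneurin) and Dysf and Zfp638 (PRN7.71G0081922; Dysf is the membrane repair protein dysferlin) fell by 3.29 and 2.90 on the log2 scale (limma, adjusted p = 1.67e-06 and 3.54e-05). Every one of these 5 members had its lowest BN-Lx library above its highest SHR library, as the rule for naming them required.

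Among the members higher in SHR, the gene opposite Tcp11l1 (PRN7.71G0062661, chr3:91078889-91079651, plus strand) stood at 5.18, 4.53, 4.19 and 4.20 in BN-Lx and at 8.72, 8.41, 8.58 and 8.58 in SHR. The gene opposite LOC120102761 (PRN7.71G0070726, chr4:611222-615792, plus strand) stood at 9.0, 8.58, 8.45 and 7.97 in BN-Lx and at 12.17, 12.04, 12.27 and 12.12 in SHR. The gene opposite LOC103689966 (PRN7.71G0010187, chr1:84865213-84929539, minus strand), whose partner has no value, stood at 5.27, 4.85, 5.12 and 4.41 and at 8.98, 8.82, 8.96 and 8.73. These 3 rose by 4.05, 3.65 and 3.96 (limma, adjusted p = 8.62e-08, 3.01e-08 and 3.01e-08). The gene opposite LOC691354 (PRN7.71G0104936) rose by 3.83 and the one opposite Dnal1 (PRN7.71G0116007, a dynein light chain gene) by 3.48. The gene that meets Hmces, a DNA repair gene, head to head (PRN7.71G0082400) stood at 5.39, 5.18, 4.82 and 4.68 in BN-Lx and at 8.49, 8.39, 8.64 and 8.44 in SHR, while Hmces differed by 0.14 (adjusted p = 0.352). The gene opposite Camsap1 and Ubac1 (PRN7.71G0054978) varied widely within SHR, at 5.39, 8.99, 8.74 and 5.52 against 3.12 to 3.19 in BN-Lx.

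Several of these members shared 1 pattern over the strains although they lie on different chromosomes. This was seen after the values were examined and is given as a description. Over all genes 0.903% split into separate groups of strains, and so did 37 members (0.898%). Of the 77 members with a called difference of at least 2, 10 split, but these 77 had been picked for a large progenitor difference. The share of splits among all genes with such a difference was not counted, so no comparison is drawn for the 10. A split means that the largest gap between batch-centred values exceeded 0.333 of their range with 3 or more strains on each side. In 4 of those 10, on chromosomes 1, 3, 4 and 18, the same 6 strains were low: BXH6, BXH8, BXH10, BXH13, HXB5 and HXB20. The 4 were the members opposite LOC103689966, Tcp11l1, LOC120102761 and Kctd16 (a GABA-B receptor auxiliary subunit), and r between them was 0.97 to 0.99. The low strains stood at 4.04 to 4.65 and the others at 6.39 to 8.68 in the Tcp11l1 member. In the Kctd16 member (PRN7.71G0230239) they stood at 5.87 to 6.69 and 8.44 to 9.76.

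Measured against the mean pattern of these 4 members, 22 of all genes reached an r of 0.9, on 11 chromosomes, and 21 of the 22 carried no name. All 22 were called and higher in SHR, by 1.99 to 4.21 (log2). The 4 members that define the pattern are among the 22 and had been chosen from members with a large called difference. Their call and their r with the pattern were therefore partly fixed in advance. Of the 22, 6 were members: the 4 above, the member opposite Cast (PRN7.71G0029910, chr2:4048543-4049138; Cast is the calpain inhibitor calpastatin) with r of 0.95 and the member opposite Casp6 and Cfi (PRN7.71G0051362, chr2:218453509-218460329) with r of 0.94. The measured partners of the first 4 had low r with the pattern (−0.28 to 0.30). The exon length of the 22 genes ran from 204 to 24970 bases, with a median of 642.5. Whether they share sequence was not tested, since no genome of the build was used here.

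**Figure D1:**
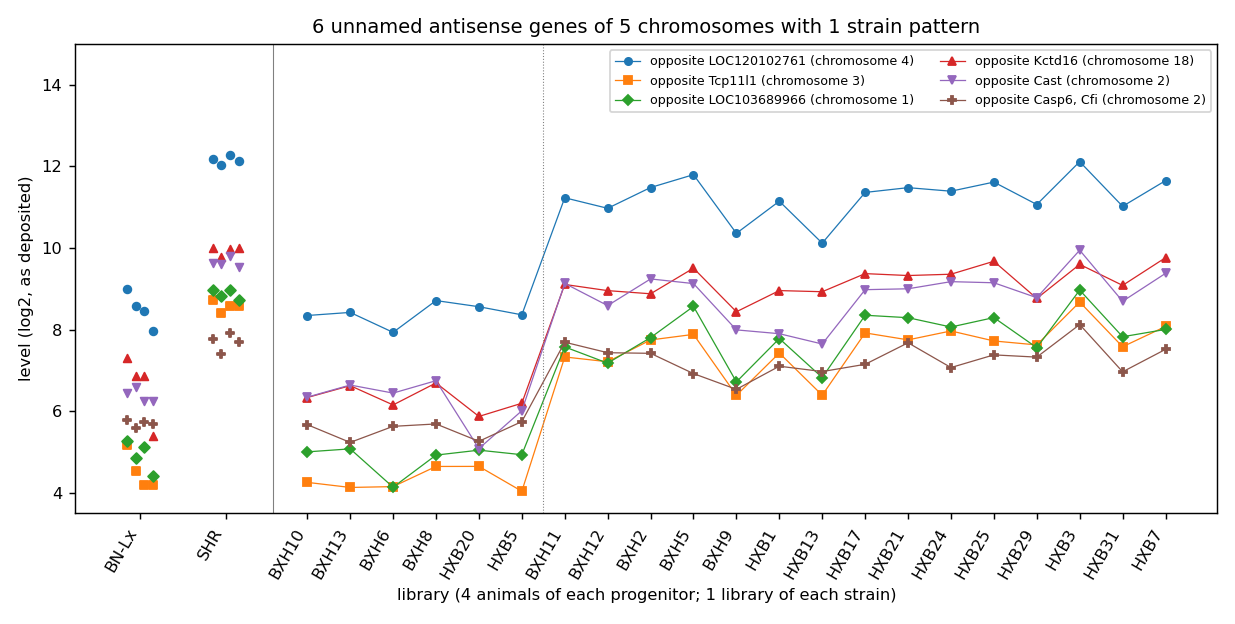
Levels (log2, as deposited) of the 6 antisense genes that share a strain pattern, in the 4 animals of each progenitor (points at the left) and in 1 library of each of the 21 strains (lines join the strains of 1 gene and stand for no order). The 6 strains left of the dotted line are low in all 6 genes, nearer the mean of the BN-Lx animals, and the other 15 stand above them in each gene.

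Both strands of a locus were then set side by side. The 2485 measured partners differed between the strains in 559 cases (22.5%), 306 higher and 253 lower in SHR. That count was 271 without limma's intensity trend, 305 with all 29 libraries and a batch term and 345 without SHR replicate 4, and the pairs with a called partner rest on it. Of the 3730 pairs, 132 had both genes called, 87 in the same direction and 45 in opposite directions. Of the 87, 41 were higher and 46 lower in SHR. In 336 pairs the member alone was called, in 737 the partner alone, and in 2525 neither. For comparison, 138 of 2771 pairs of named genes on opposite strands had both genes called, 84 in the same direction and 54 in opposite ones. With the nearest named gene that does not overlap it, at a median distance of 16619.5 bases, a member was called in the same direction in 70 cases and in the opposite direction in 40.

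The difference between the strands was tested directly, on the log2 ratio of member to partner in each library. The ratio differed between SHR and BN-Lx in 513 of 3730 pairs (13.8%), against 14.4% of all 11058 measured opposite-strand pairs. It was higher in SHR in 198 and lower in 315. The test passed in 239 of the 336 pairs in which the member alone was called, in all 45 with opposite calls and in 28 of the 87 with calls in the same direction. These sets were picked by calls on the same 8 libraries. With opposite calls the differences of both genes add up in the ratio. The result for the 45 was therefore largely fixed in advance and is no separate support.

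**Figure D2:**
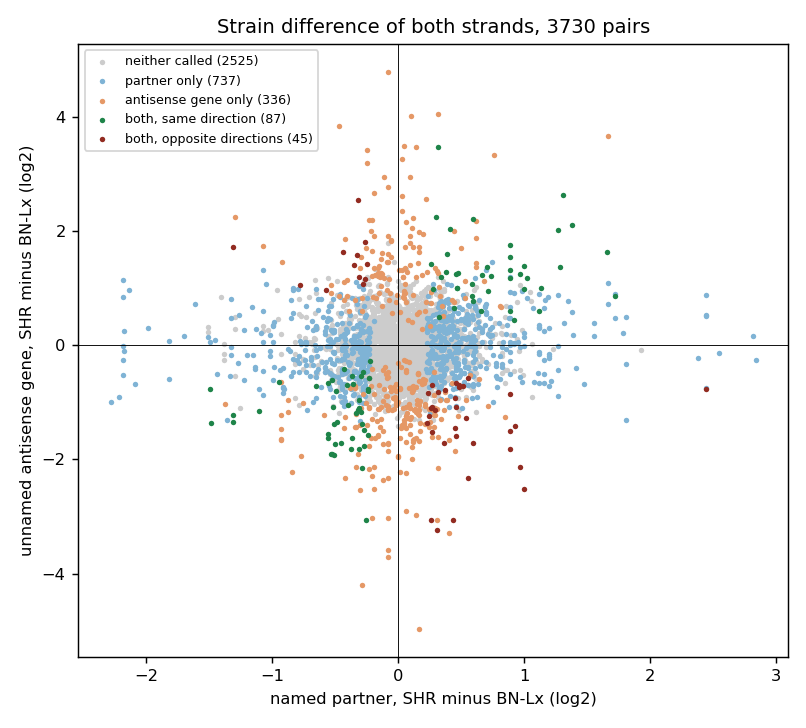
Difference SHR minus BN-Lx (log2, means of 4 animals) of each antisense gene (vertical) against that of its named partner (horizontal), 1 point for each of the 3730 pairs, coloured by which gene was called. Most called antisense genes lie near the vertical axis, with a partner that was not called, and 45 pairs were called in opposite directions.

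Among the pairs called in opposite directions, the member inside Nudt3 (PRN7.71G0241954; Nudt3 is a phosphohydrolase) stood at 5.73, 5.68, 5.84 and 5.52 in BN-Lx and at 2.61, 2.76, 2.18 and 2.26 in SHR, while Nudt3 rose from 11.39 to 11.46 in BN-Lx to 11.57 to 11.94 in SHR. Neither gene's strains overlapped. The ratio fell by 3.55 on the log2 scale (limma, adjusted p = 1.39e-06). The member inside Fgf12 (PRN7.71G0174601; Fgf12 modulates sodium channels) fell by 2.33 while Fgf12 rose by 0.56. The member inside RT1-CE14 (PRN7.71G0241631) stood at 6.84, 6.77, 6.88 and 6.73 in BN-Lx and at 5.01, 5.25, 4.97 and 4.73 in SHR, and RT1-CE14 rose by 0.89 (limma, adjusted p = 3.04e-05). Over the 21 strains these 2 also ran in opposite directions (r = −0.75, rho = −0.76, permutation p = 0.00037 and 0.00036, adjusted p = 0.00538 and 0.00572; r = −0.98 in batch 2, −0.63 in batch 3 and −0.74 without BXH8 and BXH9). BXH8 and BXH9, left out here and for other pairs below, are the strains whose libraries had the lowest medians. The assembled gene named RT1-CE14 did not follow the RefSeq gene of that name (r = −0.10), and class I genes have near-identical copies, so both values are uncertain. Pde4b, a cAMP phosphodiesterase, went the other way: its member (PRN7.71G0099796) rose by 2.53 and Pde4b fell by 0.32. Among the 5 pairs with the smallest p of the ratio test was also the member that meets Plcb1, phospholipase C beta, head to head (PRN7.71G0065743). It stood at 3.14, 2.69, 3.30 and 3.08 in BN-Lx and at 6.37, 6.50, 6.60 and 6.37 in SHR.

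At Trdn the antisense genes went both ways. All 21 lay in 1 locus of overlapping spans inside Trdn. Of these 13 were called, 4 higher and 9 lower in SHR, while Trdn itself differed by −0.08 ± 0.09 (SE; adjusted p = 0.599). Trdn stood at 12.40, 12.33, 12.52 and 12.27 in BN-Lx and at 12.47, 12.43, 12.13 and 12.18 in SHR. PRN7.71G0002736 (chr1:24190712-24204883) stood at 5.20, 7.41, 4.10 and 4.50 in BN-Lx and from 9.94 to 10.28 in the 4 SHR animals, a difference of 4.78 ± 0.52. PRN7.71G0002734 (chr1:24190704-24227694), which starts 8 bases before it, stood at 9.19, 8.77, 9.24 and 8.93 in BN-Lx and at 4.51, 4.84, 5.89 and 6.05 in SHR, a difference of −3.71 ± 0.30 (limma, adjusted p = 4.33e-06). Added up on the linear scale, the 21 members stood at 13.79, 13.43, 14.04 and 13.45 in BN-Lx and at 12.99, 13.27, 13.16 and 13.27 in SHR (log2 of the sum). The sum differed by −0.50, less than any of the 9 members called lower (two-sided exact permutation test, p = 0.0286, the smallest that 4 against 4 allow). Over the strains, 6 of the 21 correlated with Trdn, all positively. The highest r was that of PRN7.71G0002733 (r = 0.83, rho = 0.83, permutation p = 1e-05 for both, the smallest the permutations can give; adjusted p = 0.000322; r = 0.94 in batch 2, 0.75 in batch 3 and 0.78 without BXH8 and BXH9). Centred also within family, r was 0.59 (adjusted p = 0.146). Trdn and this member both stood higher in HXB than in BXH, by 0.54 and 0.92 (limma, adjusted p = 0.00135 and 0.00112).

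**Figure D3:**
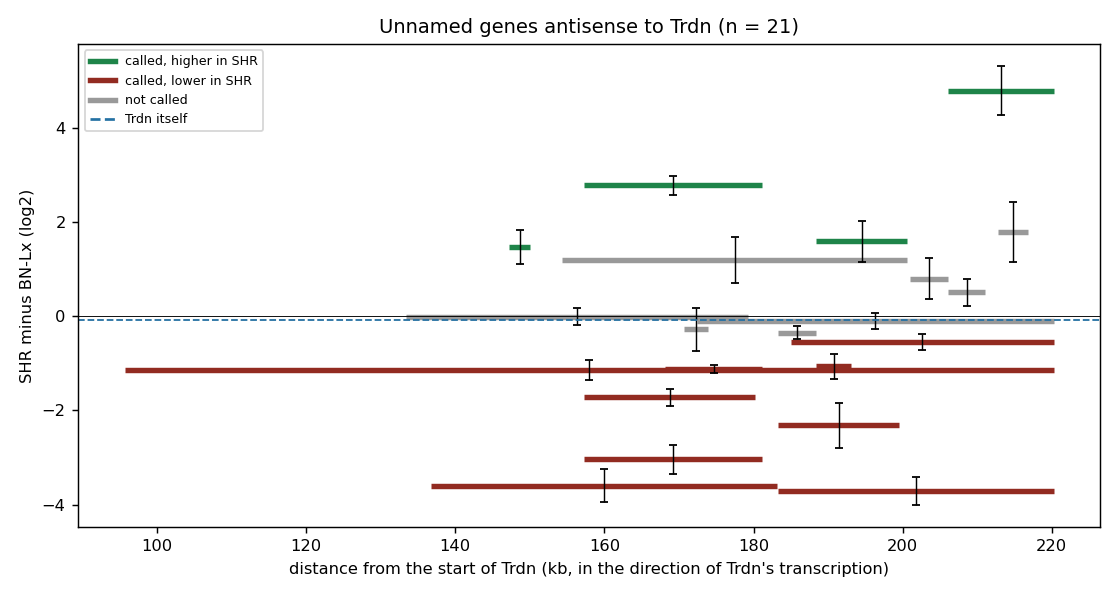
Difference SHR minus BN-Lx (log2, with SE as thin bars) of the 21 antisense genes of Trdn, each drawn as a horizontal bar over its span, by distance from the start of Trdn in kilobases. Of the called genes 4 lie above 0 and 9 below, up to 4.78 and down to −3.71, while Trdn (dashed line) lies at −0.08.

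Partners were grouped by the roles of their genes in the heart. Opposite 9 sarcomere and Z-disc genes lay 15 members, of which 3 were called, all lower in SHR (median of the list −0.13, of all genes 0.01). Among all genes 14.3% were called, the share against which the count of each list stands. The member head to head with Actc1, cardiac actin (PRN7.71G0063471), fell by 0.47 from 12.30 ± 0.28 to 11.83 ± 0.12 (SD, n = 4 each). Opposite 18 genes of calcium handling and ion channels lay 59 members, 6 higher and 10 lower in SHR (median −0.22), and 13 of these 16 were the ones at Trdn. Opposite 22 cardiac transcription factors lay 29 members, 1 higher and 5 lower (median −0.01). The one head to head with Meis2, a homeobox factor (PRN7.71G0063657), stood at 8.03, 8.40, 8.03 and 8.29 in BN-Lx and at 6.37, 6.08, 6.37 and 6.22 in SHR. Meis2 fell with it, by 0.51 against 1.93 (limma, adjusted p = 0.00105 and 1.26e-06), and the ratio test passed (adjusted p = 0.0001). The member inside Prdm16 (PRN7.71G0105563), a factor of ventricular compaction, fell by 0.82 while Prdm16 differed by 0.37 (adjusted p = 0.0547).

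Opposite 9 genes of hypertrophy and neurohumoral control lay 23 members, 3 higher and 1 lower (median 0.23). The lower one starts inside Chrm2, the muscarinic acetylcholine receptor that slows the heart, and runs over 8 exons (PRN7.71G0076660, chr4:64801170-65016735, minus strand; 648 bases of its exons overlap exons of named genes). It stood at 8.97, 9.06, 9.06 and 8.88 in BN-Lx and at 8.09, 8.27, 8.18 and 8.24 in SHR. Chrm2 stood at 13.65, 13.45, 13.73 and 13.45 and at 12.94, 13.16, 13.08 and 13.14. Both fell, by 0.80 and 0.49 on the log2 scale (limma, adjusted p = 0.000115 and 0.00159), and their ratio did not pass the test (−0.31 ± 0.11, adjusted p = 0.0789). Opposite 12 genes of fatty acid and glucose metabolism lay 19 members, 3 higher and 3 lower (median 0.19). The one inside Lpl, lipoprotein lipase (PRN7.71G0211800), fell by 2.15 and Lpl by 0.29. Of 17 members opposite 11 genes of oxidative phosphorylation and of 14 opposite 11 matrix genes, 1 each was called, both lower in SHR (medians −0.06 and −0.04). None of the 4 members opposite 4 clock genes was called by limma, nor had any an unadjusted p under 0.05, and their median was 0.04.

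Of 14 members opposite 12 genes with a textbook antisense or imprinted antisense transcript, limma called none and 0 had an unadjusted p under 0.05, with a median difference of −0.07. The member head to head with Hand2, a factor of heart morphogenesis (PRN7.71G0212960, chr16:32920326-32958541, plus strand), was strong, at 10.19, 10.15, 10.33 and 9.99 in BN-Lx and from 10 to 10.26 in the 4 SHR animals. Its strains overlapped. Over the 21 strains it ran against Hand2 without passing the test (r = −0.54, rho = −0.55, permutation p = 0.0176 and 0.0155, adjusted p = 0.0927 and 0.0895; r = −0.17 in batch 2, −0.77 in batch 3 and −0.53 without BXH8 and BXH9). The member inside Kcnq1, a potassium channel gene whose locus is imprinted (PRN7.71G0022280), stood at 7.65 ± 0.07 in BN-Lx and 7.37 ± 0.22 in SHR (SD, n = 4 each), and the members inside Igf2r and Mas1 at means of 5.24 and 2.90 over the 8 libraries. The member opposite Myh7, the beta myosin heavy chain gene (PRN7.71G0203588), was near the bottom of the scale at 0.90 ± 0.82 and 0.63 ± 0.62.

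The 21 strains were used to ask whether both strands of a locus vary together. After centring within batch, member and partner correlated in 419 of 3730 pairs (11.2%) by a permutation test within batch with adjustment over all pairs, 316 positively (8.47%) and 103 negatively (2.76%). Among all 11058 opposite-strand pairs 14.7% correlated, 12.2% positively and 2.55% negatively. Among the 2771 pairs of named genes 32.3% did. The median r was 0.08 for members and partners (quartiles −0.16 and 0.34), 0.31 for pairs of named genes (−0.04 and 0.63) and 0.06 for members and their nearest other named gene (−0.18 and 0.29). Members were much weaker than their partners. In the 1021 member-partner pairs with both means above the median of all genes, the median r was 0.15 (quartiles −0.16 and 0.47). Named pairs were not restricted in this way, so the kinds of pairs were not compared at like levels. Pairs whose exons overlap had a median r of 0.13, and the others one of 0.05. Head-to-head pairs correlated in 100 of 670 cases (14.9%), pairs with the member inside in 271 of 2637 (10.3%), tail-to-tail pairs in 36 of 363 (9.92%) and surrounding members in 12 of 60. Of 31 pairs that correlated and were called in the same direction between the progenitors, 29 had a positive r, and of 6 called in opposite directions, 5 had a negative r.

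The families stood apart in the main direction of variation. The first principal component of all genes over the strains held 23.9% of the variance, and its scores differed between HXB (median 0.17, range −0.19 to 0.30) and BXH (median −0.19, range −0.40 to 0.02; two-sided permutation test, p = 0.00024). With centring within batch and family, 103 pairs correlated, and with that component removed, 55. The median r over all pairs was then 0.06 and 0.05, against 0.08. In batch 3 alone 353 pairs correlated. In batch 2, with 6 strains, the permutation test passed none, with 250 at an unadjusted p under 0.05. Without BXH8 and BXH9, whose libraries had the lowest medians, 275 did.

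**Figure D4:**
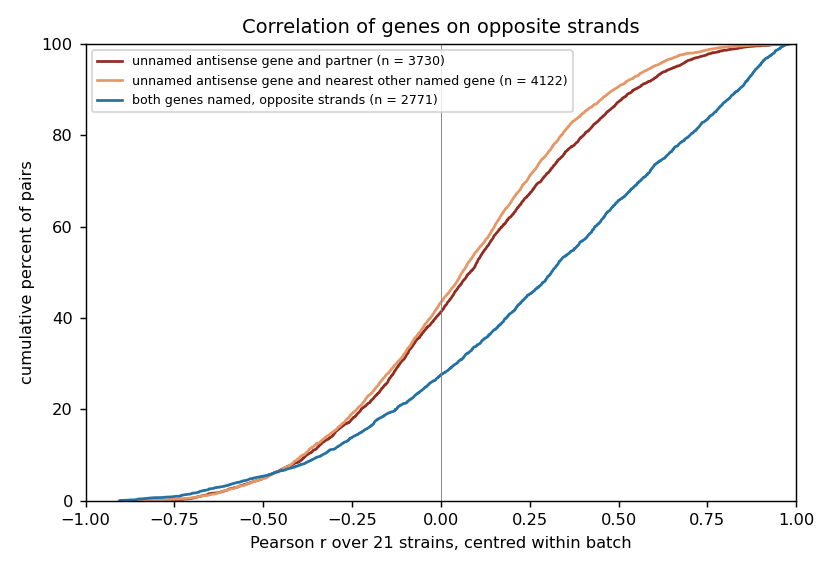
Cumulative percent of pairs (vertical) by Pearson r over the 21 strains after centring within batch (horizontal), for antisense genes with their partners, with their nearest other named gene, and for pairs of named genes on opposite strands. The curve of the antisense genes with their partners (median 0.08) lies close to that with the nearest named gene (median 0.06), and that of the named pairs lies to the right (median 0.31). The curves were not restricted to genes of like level.

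Among pairs with a positive r, the member of Chrm2 followed it (r = 0.84, rho = 0.79, permutation p = 2e-05 and 6e-05, adjusted p = 0.000538 and 0.00143). The r was 0.80 in batch 2, 0.85 in batch 3, 0.79 without BXH8 and BXH9 and 0.75 after centring also within family (adjusted p = 0.0335). The member head to head with Zeb2, a zinc-finger repressor with a known antisense RNA (PRN7.71G0057213, chr3:29349235-29395275, plus strand), stood at 6.08 to 6.65 in BN-Lx and 6.52 to 6.99 in SHR, which overlap. Over the strains it followed Zeb2 (r = 0.82, rho = 0.81, permutation p = 3e-05 and 6e-05, adjusted p = 0.000745 and 0.00143; r = 0.75 in batch 2, 0.87 in batch 3, 0.70 without BXH8 and BXH9). Within the families r was 0.44 in HXB and 0.96 in BXH, a difference that was not tested. The member inside Tbx5, a factor of chamber formation, gave r = 0.60 (rho = 0.58, permutation p = 0.00595 and 0.00834, adjusted p = 0.0431 and 0.0583; r = 0.57 in batch 2 and 0.62 in batch 3), so that the call held for r and not for rho. The 5 highest r among members above the median level were those opposite Hist1h3b (2 members, 0.98 and 0.95), Ndufaf3 (0.96), Mcrip2 with Rhot2, Stub1 and Wdr90 (0.96) and Hist1h2bc (0.94), each with permutation p = 1e-05 and adjusted p = 0.000322. Histone genes have near-identical copies, so these values are uncertain.

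Among members with a mean above the median of all genes, the 5 lowest r were those opposite Lpp, a zyxin-like protein of cell adhesion (−0.83), Cpt1b, the carnitine transferase that admits fatty acids to mitochondria (−0.81), Cox10, an assembly factor of cytochrome oxidase (−0.80), Ifnar2, an interferon receptor chain (−0.77), and Mirlet7b (−0.76). The member head to head with Cox10 (PRN7.71G0161938, chr10:48742855-48746656, plus strand) ran from 4.36 to 5.27 in HXB (median 5.01) and from 4.08 to 5.07 in BXH (median 4.58). Cox10 ran from 11.24 to 12 (median 11.47) and from 11.47 to 12.22 (median 11.83). The r of −0.80 (rho = −0.73, permutation p = 1e-05 and 0.0005, adjusted p = 0.000322 and 0.0073) was −0.70 in batch 2, −0.85 in batch 3, −0.74 without BXH8 and BXH9 and −0.69 after centring also within family (adjusted p = 0.0379). For the member of Cpt1b (PRN7.71G0132361, chr7:120503789-120517655, plus strand) rho was −0.78 (permutation p = 2e-05 for r and 0.00013 for rho, adjusted p = 0.000538 and 0.00266), with r of −0.95 in batch 2, −0.78 in batch 3 and −0.77 without BXH8 and BXH9. Its r was −0.61 after centring within family (adjusted p = 0.138) and about 0 with the first principal component removed. Between the progenitors this member stood at 6.37, 6.78, 6.44 and 6.69 in BN-Lx and at 7.09, 7.12, 7.32 and 7.06 in SHR (limma, adjusted p = 0.0149), and Cpt1b differed by 0.02. Of 17 members opposite oxidative phosphorylation genes, 4 ran against their partner and none with it (median r = −0.35, over all pairs 0.08). Among all opposite-strand pairs 2.55% correlated negatively and 12.2% positively. These values were centred within batch only, and the set as a whole was not tested within the families.

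**Figure D5:**
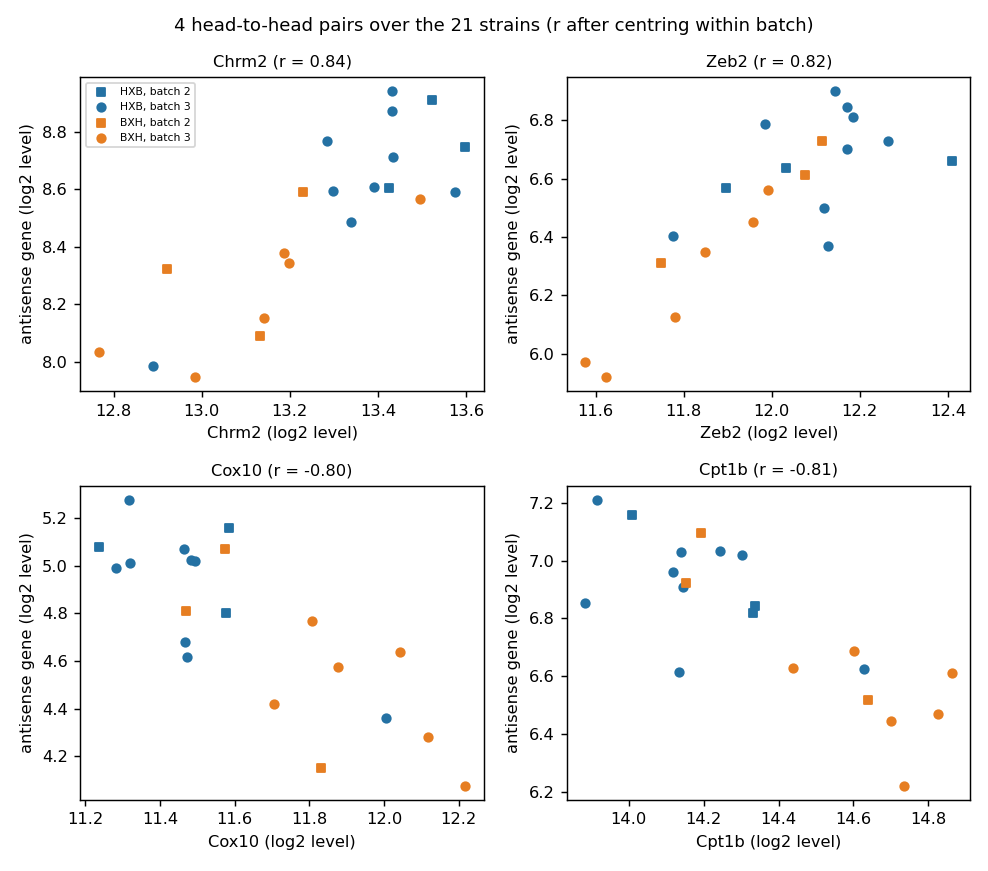
Level of the antisense gene (vertical, log2) against that of its head-to-head partner (horizontal, log2) in the 21 strains, for Chrm2, Zeb2, Cox10 and Cpt1b, coloured by family with squares for batch 2 and circles for batch 3. The pairs rise together in the upper panels (r = 0.84 and 0.82) and run against each other in the lower ones (r = −0.80 and −0.81), and the families stand partly apart in all 4.

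Some members varied as genes that RefSeq names. For 2582 of 2588 comparable members the deposited annotation placed the partner on the RefSeq strand. The median r of 2027 partners with the RefSeq gene of the same name was 0.89. Of these partners 65.6% reached an r of 0.8, and 83 had an r under 0, so not every partner followed the gene whose name it carries. For 635 members, RefSeq (GRCr8, used for names and order only) lists a gene with a value on the strand opposite their partner. Of the 728 such combinations 284 correlated (permutation test, adjusted over the 728), with a median r of 0.33. In 124 members r was at least 0.9 and the mean levels lay within 1 (log2), a limit set after the values were seen. The RefSeq gene was protein coding for 17 of these and a long non-coding RNA for 107. The member opposite Cpsf2 (PRN7.71G0117606) followed Ndufb1, a subunit of respiratory complex I, at means of 12.28 and 12.45 over the strains (r = 0.96). The one opposite Prdx5 followed Trmt112 (r = 0.99), the one opposite Agbl5 followed Ost4 (r = 0.97), the one opposite Rb1 followed Lpar6 (r = 0.94), and the one opposite Ndufaf3 followed Impdh2 (r = 0.95), the enzyme of guanine nucleotide synthesis. The member head to head with Adamts9 (PRN7.71G0082941), named here after its values were seen, varied with the long non-coding LOC102555978 (r = 0.99) but lay above it by more than that limit, at means of 11.10 and 9.13, so it is not among the 124. It stood at 11.70, 11.73, 11.80 and 11.94 in BN-Lx and at 10.48, 10.67, 10.99 and 10.67 in SHR, a fall of 1.09 (limma, adjusted p = 1.83e-05), while the protease gene Adamts9 rose by 0.27 (adjusted p = 0.0329). Without the 124, 517 members were called between the progenitors.

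Per kilobase of exon, the 5 most abundant members were those opposite Zmym2 (213 bases of exon, 16.44 per kilobase), Pip5k1b (391 bases, 15.42), Cep85l (5952 bases, 13.67), Cpsf2 (401 bases, 13.47) and Sdc2 (252 bases, 13.36). By level alone the one opposite Cep85l (PRN7.71G0244495, chr20:32596736-32639598, plus strand) stood at 16.40, 16.31, 16.41 and 16.40 in BN-Lx and at 16.12, 16.14, 16.13 and 16.01 in SHR, a fall of 0.28 (limma, adjusted p = 0.00881). RefSeq lists Pln, the gene of phospholamban, the inhibitor of the cardiac calcium pump, on the strand opposite Cep85l. The mean over the strains was 16.29 for the member and 16.22 for RefSeq's Pln, and r between them was 0.51 (permutation p = 0.0213, adjusted p = 0.0535). The level thus lay near that of Pln, and the variation over strains did not pass the test. Cep85l itself differed by −0.23 (adjusted p = 0.0443). The member inside Zmym2 ran against it over the strains (r = −0.69, rho = −0.71, permutation p = 0.00062 and 0.00041, adjusted p = 0.00796 and 0.00627; r = −0.71 in batch 2 and −0.69 in batch 3), with r of −0.55 after centring within family (adjusted p = 0.155) and 0.08 with the first principal component removed.

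A further set of 23 members lay opposite 15 assembled genes named for a microRNA. The small RNAs themselves were not measured by this protocol, and the values are those of the assembled longer RNAs. Of the 23, 1 was higher and 2 lower in SHR (median −0.18), and these 3 all lie opposite 1 assembled gene that carries the names Mir30d and Zfat. Among all genes 14.3% were called, with a median difference of 0.01. Among all opposite-strand pairs 14.7% correlated. Of the 23, 16 had a measured partner, of which 1 correlated, negatively (median r = 0.06). That was the member inside Mirlet7b (PRN7.71G0132058; r = −0.76, rho = −0.77, permutation p = 0.00017 and 0.00012, adjusted p = 0.00298 and 0.00249; r = −0.57 in batch 2 and −0.82 in batch 3). After centring within family r was −0.60 (adjusted p = 0.148). Members opposite Mir1b, a muscle microRNA, and those opposite Mir499a were not called (limma, adjusted p from 0.804 to 0.964). The member surrounding Mir3596a (PRN7.71G0138126, chromosome 8) had the highest level of the 23, not set per length, at a mean of 11.81 over 220679 bases of exon, with a difference of −0.29 (limma, adjusted p = 0.0688). Because miR-3596a is read from the strand opposite this member, its reverse complement is shown beside the let-7b sequence, 5′ to 3′ from RefSeq, with the seed (bases 2 to 8) in capitals.
rno-let-7b-5p: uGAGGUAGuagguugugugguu
rno-miR-3596a: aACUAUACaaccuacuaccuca
reverse complement of rno-miR-3596a: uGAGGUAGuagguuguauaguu
rno-miR-1b: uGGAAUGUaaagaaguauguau
The reverse complement of miR-3596a carries the seed of let-7b, and miR-1b carries another.

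HXB and BXH, which come from reciprocal crosses of the same progenitors, were compared last. Of the members 675 (16.4%) differed, 333 higher and 342 lower in HXB, against 27.9% of all genes (15.1% higher and 12.8% lower). Among genes with a mean above the median, 359 of 1220 members (29.4%) and 43.5% of all such genes were called. The median HXB minus BXH was 0.02 over the members and 0.11 over all genes. Of the 9 cardiomyocyte markers 8 were found, and 6 were lower in HXB, with summed levels of 20.49 to 21.06 in HXB and 20.72 to 21.28 in BXH. Of the mesothelial markers 2 of 3 were lower in HXB (sums of 9.72 to 10.12, against 10.07 to 10.75 in BXH), and of the lymphocyte markers 2 of 4 (6.42 to 7.63 against 6.93 to 7.88). The part of these cell types in the counts was not tested. Without BXH8 and BXH9, 317 members were called, and in batch 3 alone 814, both settings chosen after seeing the data. In batch 2 alone limma called none, with 224 at an unadjusted p under 0.05. Of the 4122 members 112 (2.72%) were called both here and between the progenitors, against 4.95% of all genes.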

How the data were processed

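Left ventricle RNA of 8 progenitor animals and 21 strains was used. The authors assembled genes from their stranded reads and deposited a log2 expression value for each gene and library, on the rat build rn7. The submitters' processing notes name cutadapt 1.9.1, HISAT2 2.1.0, StringTie 1.3.5, Bowtie2 2.3.4.3, RSEM 1.3.1 and DESeq2, and the role of each is not given in the sources used here. Deposited values hold no counts, so depth and counting error are unknown, and how reads of overlapping genes were divided is not stated. A table of RefSeq genes on the same scale was used for comparison of names. One later library of SHR replicate 4 entered only an alternative.

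Levels were compared as deposited, with no filter. Progenitors were compared with limma 3.58.1 in R 4.3.3 (intensity trend, Benjamini-Hochberg over 46063 genes), and the member minus partner difference of log2 values in the same way over 11058 opposite-strand pairs. Correlations over the 21 strains were centred within batch and tested with 100000 permutations within batch, two-sided, adjusted over the same pairs. HXB and BXH were compared by limma with batch as a term. The threshold was an adjusted p of 0.05. Level per kilobase is the log2 level less the log2 of exon kilobases. Scripts were tested on simulated data. Members, lists and thresholds were chosen with earlier results of these data known. Genes were named as the 8 highest and 8 lowest differences among called members that did not overlap and had a mean above the median, the 5 highest and 5 lowest r by the same mean, the 5 smallest p of the difference among pairs called in opposite directions and among all pairs, the 5 highest levels per kilobase, the 2 smallest p of each list, and all of the textbook list, of which the text gives a selection. Replicate numbers did not pair the animals: same-numbered BN-Lx and SHR animals had correlated deviations of −0.09 to 0.08. RefSeq sequences are from GRCr8. A result on a withheld gene is not reported here.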

Additional observations from a re-analysis of the deposited data

Results flagged for a closer look

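In 7 of 111 groups tested, 1 library lay apart from the others of its group (Dixon's 95% critical value, which chance passes in about 1 group in 20). The member opposite Cdkl3 and Ppp2ca stood at 8.40 in BN-Lx animal 4 and at 8.53 to 8.54 in the other BN-Lx animals. A Trdn member (PRN7.71G0002751) stood at 3.62 in SHR animal 1 and at 5.03 to 5.26 in the others. The member opposite Dnal1 stood at 8.26 in BXH6 and at 3.74 to 5.54 in the other BXH strains. The member opposite LOC691354 stood at 9.02 in BXH8 and at 4.65 to 6.16 in the other BXH strains. The member opposite Lpp stood at 7.42 in BN-Lx animal 4 against 6.90 to 6.98, and the one opposite Mirlet7b at 5.03 in BN-Lx animal 1 against 4.71 to 4.73. The member opposite Cep85l stood at 16.01 in SHR animal 4 against 16.12 to 16.14.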

How the results depend on the processing

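Of the 538 members called between the progenitors, 261 had exons that overlap a named gene and 277 had none, and 306 members were called when only genes with a mean above the median were tested. Without 1 animal in turn the count ran from 384 to 460. Of the partners 305 were called with all 29 libraries and a batch term, 271 without the intensity trend, and 345 to 537 without 1 animal, the lowest without SHR replicate 4. The member minus partner difference was called in 295 pairs among genes with a mean above the median and in 384 to 450 without 1 animal. With a replicate block, which the pairing check did not bear out, 433 members, 449 partners and 394 pairs were called. Correlations numbered 55 with the first principal component removed, 261 among pairs whose exons overlap, 0 in batch 2 alone and, by choices made after seeing the data, 103 with centring within batch and family and 275 without BXH8 and BXH9. HXB and BXH differed in 429 members among genes with a mean above the median and, added after seeing the data, in 0 in batch 2 alone (limma) and 317 without BXH8 and BXH9. With the first principal component removed the negative r was lost for the members opposite Cpt1b (4.9e-05) and Zmym2 (0.0797). The cause was not tested, except that fewer genes or strains enter the restricted settings. Other settings kept each count within 1.5 times. The depth is unknown.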
